A study of Arabidopsis thaliana with 8 samples.

Results

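GRXS3 (AT4G15700), GRXS4 (AT4G15680), GRXS5 (AT4G15690) and GRXS8 (AT4G15660) are 4 glutaredoxin genes of Arabidopsis thaliana that stand next to each other on chromosome 4. They were chosen by gene, and each was represented by 1 probe set of the Affymetrix ATH1 array (245506_at, 245392_at, 245505_at and 245504_at), so that 4 of 22746 probe sets are described here. The GRXS7 gene (AT4G15670) lies between GRXS8 and GRXS4 in the RefSeq annotation, and no probe set could be assigned to it.

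Glutaredoxins are small enzymes that use glutathione to reduce disulfides in other proteins. Land plants have, besides the widely shared CPYC and CGFS types, a large plant-specific group with a CC motif in the active site, to which the 4 genes belong. Some members of this group bind TGA transcription factors. In Arabidopsis, the genes of this cluster are known to be switched on by nitrate, a response in which cytokinin signalling takes part, and to restrain the growth of the primary root.

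The arrays were hybridised with total RNA from whole 9-day-old Col-0 seedlings raised in shaken liquid culture under constant light, all without a mutation or transgene. Seedlings in full nutrition (FN) received 3 mM sulfate throughout. Starved seedlings (-S) grew on 150 µM sulfate for 7 days and were then left without sulfate for 48 h, and part of these cultures was given 500 µM sulfate for 30 min (30' S) or 3 h (3 h S). Each condition was measured once in each of 2 experiments, which gives n = 2 for a condition and 8 arrays in all, and this small number of arrays limits the precision. The study treats the experiments as biological repetitions, but reports that starvation was more severe in experiment 1. There, sulfate and glutathione in -S were lower than in experiment 2, and nitrate content was decreased in -S as well. By the study, several genes that changed in -S of experiment 1 only also responded to nitrate starvation. Whether these differences shaped the values of the glutaredoxin genes was not tested. By the study's list of media, FN also held more nitrate and ammonium salts and less chloride than the sulfate-free medium of the last 48 h, to which sulfate was added in 30' S and 3 h S, so that a difference in nitrogen supply and one in sulfate cannot be told apart in any comparison with FN. This does not apply to the comparisons of 30' S and 3 h S with -S, which share that medium. By the study's methods, however, sulfate was added as its potassium salt to opened flasks, which were harvested 30 min or 3 h later. Potassium chloride controls are described there, but none is among the 8 arrays. An effect of sulfate therefore cannot be told apart from one of potassium, handling or the added time.

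The values are MAS 5.0 signals, an intensity on a linear scale that the authors' software had brought to the same trimmed mean (99.4) on every array. A signal was set against the floor of its array, the signal at the share of probe sets the study lists as absent there. The floors were higher in experiment 1 (17.2 to 20.3) than in experiment 2 (10.9 to 13.5). Signals below the floor have no reliable order, and a fold that involves one is given as a bound taken at the floor.

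All 4 genes were detected in full nutrition and lay below the floor in starved seedlings, in both experiments. After 3 h of sulfate, their signals stood again near those of FN in experiment 2 and stayed below the floor in experiment 1. None of these differences passed the test over both experiments, and the values by array follow.

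In experiment 1, GRXS3 had a signal of 46.5 in FN, 0.9 in -S, 0.2 in 30' S and 3.5 in 3 h S. In experiment 2 it had 26.6 in FN, 7.0 in -S, 12.9 in 30' S and 28.8 in 3 h S. It was above the floor in both FN arrays and in the resupplied seedlings of experiment 2, at 30 min and at 3 h, and below it on the other 4 arrays.

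For GRXS4, experiment 1 gave 89.4 in FN, 1.0 in -S, 0.9 in 30' S and 3.7 in 3 h S. Experiment 2 gave 25.0 in FN, 8.9 in -S, 11.7 in 30' S and 34.6 in 3 h S. The FN arrays of this gene differed more from each other than those of the other 3 genes, and its 3 h S array of experiment 2 exceeded the FN array beside it.

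GRXS5 was at 42.9 in FN, 0.2 in -S, 0.1 in 30' S and 1.4 in 3 h S in experiment 1. In experiment 2 it was at 35.3 in FN, 0.9 in -S, 3.7 in 30' S and 26.5 in 3 h S. It had the most similar FN signals, and it lay far below the floor in the -S arrays of both experiments. Only both FN arrays and 3 h S of experiment 2 were above the floor.

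GRXS8 had a signal of 55.3 in FN, 0.4 in -S, 0.2 in 30' S and 4.3 in 3 h S in experiment 1. Experiment 2 gave 21.4 in FN, 7.9 in -S, 8.5 in 30' S and 17.8 in 3 h S. As for GRXS5, 3 arrays were above the floor. The same 3 arrays were the highest for each of the 4 genes, FN of both experiments and 3 h S of experiment 2, with FN of experiment 1 first. The order of the arrays below the floor is not read.

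**Figure D1:**
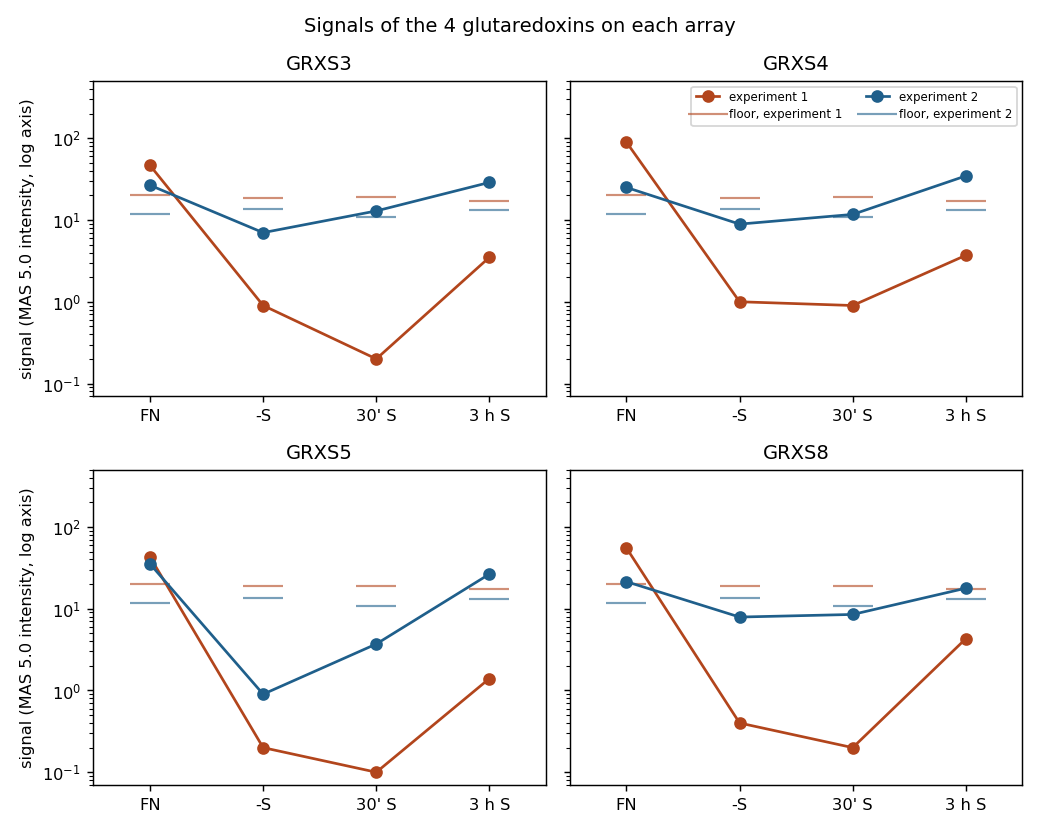
MAS 5.0 signals of GRXS3, GRXS4, GRXS5 and GRXS8 (log axis) for the 4 conditions in time order, 1 point for an array, with a line for each experiment and a short bar for the floor of each array. The -S points lie below their floors in both experiments, and the 3 h S points lie above them in experiment 2 (17.8 to 34.6) and below them in experiment 1 (1.4 to 4.3).

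The first comparison asks how starved seedlings differed from those in full nutrition. GRXS3 averaged 3.95 ± 4.31 in -S and 36.5 ± 14.1 in FN (SD, n = 2 each). GRXS4 averaged 4.95 ± 5.59 in -S and 57.2 ± 45.5 in FN. In both genes the -S arrays lay below both FN arrays.

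GRXS5 averaged 0.55 ± 0.495 in -S and 39.1 ± 5.37 in FN (SD, n = 2 each). GRXS8 averaged 4.15 ± 5.3 in -S and 38.3 ± 24.0 in FN. The groups did not overlap for these genes either, an arrangement that 18.9% of all 17138 probe sets tested also showed. A narrower pattern, FN at or above the floor and -S below it in both experiments, was found for the 4 genes and for 0.49% of the probe sets tested, 84 in number with the 4 included.

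The floor sets how far the folds can be read. Taken at the floor, the -S signal of experiment 1 was at most 40.4% of FN for GRXS3, 21.0% for GRXS4, 43.8% for GRXS5 and 34.0% for GRXS8. In experiment 2 the same upper limits were 50.8, 54.0, 38.2 and 63.1%. A 2-fold difference was therefore covered by the bound in experiment 1 for all 4 genes, and in experiment 2 for GRXS5 alone. The study itself selected array genes by detection calls and a ratio of -S over FN past 2-fold in both experiments. The 4 genes are not set against that rule here, because detection calls were not used and each -S signal lay below the floor.

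The test over all arrays was limma on log2(signal + 16) with the experiment as a block, and the offset of 16 makes the fold changes of such low signals smaller than their ratios. None of the 4 genes passed an adjusted p of 0.05 in -S over FN, where 0.543% of the probe sets tested were called lower. GRXS5 came nearest, with a log2 fold change of -1.73 ± 0.33 (SE, adjusted p = 0.063). GRXS3 had -1.39 ± 0.37 (adjusted p = 0.13), GRXS8 -1.38 ± 0.38 (adjusted p = 0.14) and GRXS4, whose FN arrays were farthest apart, -1.68 ± 0.56 (adjusted p = 0.17).

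All 4 genes had an unadjusted p under 0.05 in limma, as had 9.88% of all probe sets in that direction. After adjustment, the methods' t-test with n = 2 called 0 of the 17138 probe sets in each comparison. That test therefore says nothing about these genes in particular. The 95% intervals of the 4 values did not reach 0. They ran from -2.51 to -0.96 for GRXS5, from -2.27 to -0.51 for GRXS3, from -2.29 to -0.47 for GRXS8 and from -3.0 to -0.36 for GRXS4. The median of the 4 log2 values was -1.54, beside 0.05 over all probe sets tested.

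The calls depended on the FN array of experiment 2. Without it limma called all 4 genes lower in -S, with log2 fold changes of -2.08 for GRXS3, -2.79 for GRXS4, -2.11 for GRXS5 and -2.16 for GRXS8, but 12.4% of all probe sets were then called lower, and 1 FN array was assumed to vary like the other conditions. Without the FN array of experiment 1 the values were -0.70, -0.56, -1.36 and -0.61, and none was called. GRXS5 alone was also called without either of the 3 h S arrays (adjusted p = 0.024 without that of experiment 2).

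The second comparison asks how seedlings after 30 min of sulfate differed from starved ones. In 30' S the mean signals were 6.55 ± 8.98 for GRXS3, 6.3 ± 7.64 for GRXS4, 1.9 ± 2.55 for GRXS5 and 4.35 ± 5.87 for GRXS8 (SD, n = 2). In -S they were 3.95 ± 4.31 for GRXS3, 4.95 ± 5.59 for GRXS4, 0.55 ± 0.495 for GRXS5 and 4.15 ± 5.3 for GRXS8. The groups overlapped for all 4 genes. In experiment 2, GRXS3 and GRXS4 were just above the floor of 10.9 in 30' S, at 12.9 and 11.7, while their -S signals were below that array's own floor.

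The log2 fold changes of 30' S over -S were 0.13 ± 0.37 for GRXS3, 0.07 ± 0.56 for GRXS4, 0.11 ± 0.33 for GRXS5 and 0.01 ± 0.38 for GRXS8 (SE). Limma called 0 of 4 genes, with 0 of 4 at an unadjusted p under 0.05 (1.67% of all probe sets were higher at that limit). Over all probe sets, limma called 0% higher and 0.00583% lower, and the methods' t-test called none after adjustment. The 95% intervals still held changes in both directions, from -0.67 to 0.88 for GRXS5 as the narrowest and from -1.25 to 1.39 for GRXS4 as the widest.

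The third comparison asks whether the signals came back within 3 h of sulfate. The 2 experiments gave different pictures. In experiment 2 the 3 h S signals were above the floor for all 4 genes, at least 2.13-fold over -S for GRXS3, 2.56-fold for GRXS4, 1.96-fold for GRXS5 and 1.32-fold for GRXS8. In experiment 1 both conditions lay below the floor for each gene, so that no fold can be given.

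Over both experiments, GRXS3 averaged 16.1 ± 17.9 in 3 h S and 3.95 ± 4.31 in -S (SD, n = 2 each). GRXS4 averaged 19.2 ± 21.8 in 3 h S and 4.95 ± 5.59 in -S. The SD exceeded the mean in both conditions for both genes, and the 3 h S and -S arrays overlapped.

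GRXS5 averaged 13.9 ± 17.7 in 3 h S and 0.55 ± 0.495 in -S. Its 3 h S array of experiment 1 (1.4) and its -S arrays (0.2 and 0.9) lay below the floor, so that their order is not read. GRXS8 averaged 11.1 ± 9.55 in 3 h S and 4.15 ± 5.3 in -S. The same arrays of this gene lay below the floor.

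Limma called 0 of 4 genes in 3 h S over -S, where 0.735% of the probe sets tested were called higher. The log2 fold changes were 0.72 ± 0.33 for GRXS5 (adjusted p = 0.40), 0.58 ± 0.37 for GRXS3 (adjusted p = 0.56), 0.62 ± 0.56 for GRXS4 (adjusted p = 0.70) and 0.40 ± 0.38 for GRXS8 (adjusted p = 0.71). None of the 4 had an unadjusted p under 0.05, which 8.02% of all probe sets reached in that direction. The methods' t-test called none of all probe sets after adjustment. The median of the 4 was 0.60, beside -0.02 over all probe sets.

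The values rested on 3 h S of experiment 2. Without that array the log2 fold changes were 0.11 for GRXS3, -0.08 for GRXS4, 0.10 for GRXS5 and 0.07 for GRXS8. With 1 array for a condition in each experiment, the difference between the experiments was not tested.

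The fourth comparison sets the resupplied seedlings against full nutrition. In experiment 2 the 3 h S signal was 108% of FN for GRXS3, 138% for GRXS4, 75.1% for GRXS5 and 83.2% for GRXS8. In experiment 1 it was at most 37.0, 19.2, 40.1 and 31.1% of FN for the same genes, taken at the floor. The percentages of experiment 2 come from single arrays, so that no side of FN is read from them.

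Limma called 0 of 4 genes in 3 h S over FN, where 0.146% of the probe sets tested were called lower and 0.414% higher. The log2 fold changes were -1.01 ± 0.33 for GRXS5 (adjusted p = 0.19), -0.98 ± 0.38 for GRXS8 (adjusted p = 0.25), -0.80 ± 0.37 for GRXS3 (adjusted p = 0.30) and -1.06 ± 0.56 for GRXS4 (adjusted p = 0.35). GRXS5 and GRXS8 had an unadjusted p under 0.05, as had 8.2% of all probe sets in that direction. The methods' t-test called none of all probe sets after adjustment. Without the FN array of experiment 2 all 4 were called lower, when 11.6% of all probe sets were. Without that of experiment 1 none was called, and GRXS4 stood at 0.06.

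The split between experiments after 3 h was shared with other probe sets. Of the 84 probe sets that were above the floor in FN and below it in -S in both experiments, 39 (46.4%) were above the floor in 3 h S of experiment 2 only, the 4 genes among them, a combined pattern found in 0.228% of all probe sets tested. A further 22 (26.2%) were above it in both experiments, 19 (22.6%) in neither and 4 (4.76%) in experiment 1 only. Among all probe sets tested, 8.76% were above the floor in 3 h S of experiment 2 only.

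Each of the 4 genes followed their mean course closely. Over the 8 arrays, Pearson's r of log2(signal + 16) with the mean of the 4 was 0.990 for GRXS3, 0.988 for GRXS4, 0.984 for GRXS8 and 0.965 for GRXS5, a mean to which each gene itself contributes. The genes are close paralogs, and whether a probe set also takes up RNA of a neighbouring gene was not tested. The genes on either side of the cluster, AT4G15650 and AT4G15710, were below the floor on all 8 arrays.

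The 10 probe sets outside the cluster whose course was most like this mean, among those with a range of at least 2 log2 units, had r between 0.961 and 0.985. The points share arrays and experiments, and the likeness is given as a description. Of these, 3 have a gene name here: AT3G23760 (r = 0.967), AT4G21870 (r = 0.964) and CHLI2 (r = 0.963), a subunit of the magnesium chelatase of chlorophyll synthesis. The first in rank, 262603_at, is without a gene name here and had signals of 298.7 in FN, 19.2 in -S, 19.3 in 30' S and 47.9 in 3 h S in experiment 1, where experiment 2 gave 128.0 in FN, 41.5 in -S, 51.4 in 30' S and 112.5 in 3 h S.

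CHLI2 was above the floor on most arrays, unlike the 4 glutaredoxins, with 134.3 in FN, 25.1 in -S, 17.5 in 30' S and 23.4 in 3 h S in experiment 1. Experiment 2 gave 58.5 in FN, 38.8 in -S, 39.3 in 30' S and 53.0 in 3 h S. The order of the experiments was the same as in the cluster, with the wider difference from FN in experiment 1. The 10 were picked for this course, so that no test of them is given.

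**Figure D2:**
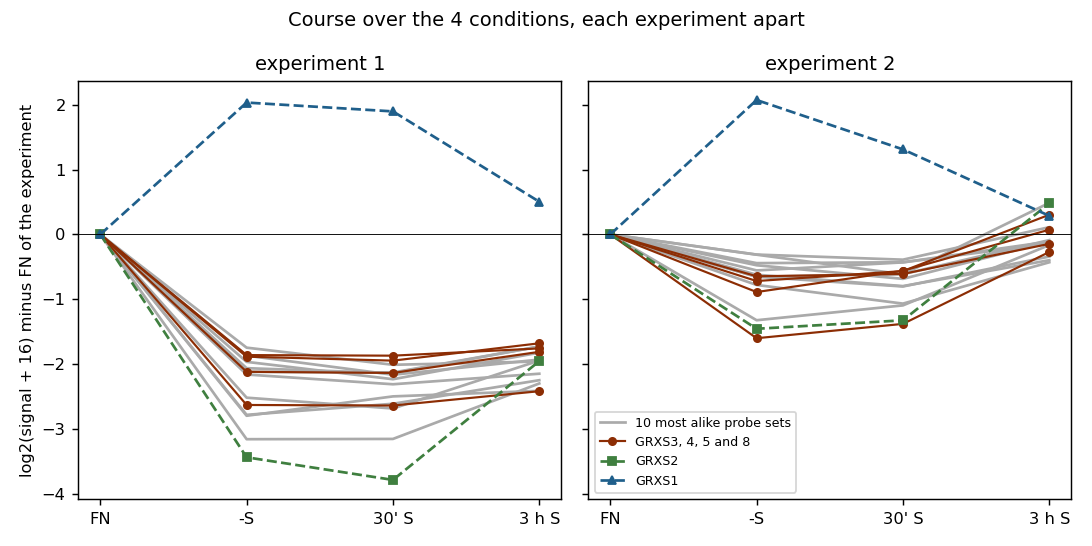
Course of log2(signal + 16) relative to FN of the same experiment for GRXS3, GRXS4, GRXS5 and GRXS8, for the 10 probe sets most like their mean (grey), and for GRXS2 and GRXS1, over the 4 conditions of each experiment. The 4 genes stay well under 0 at 3 h S in experiment 1 (-2.42 to -1.68) and lie near 0 in experiment 2 (-0.27 to 0.30).

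Of the other CC-type glutaredoxins, 12 of 16 had a named probe set and 9 were tested. In -S over FN, 1 was called higher and 0 lower by limma, and in 3 h S over -S, 0 higher and 1 lower, both times GRXS1. None was called in the other 2 comparisons. Over all probe sets 0.875% were called higher in -S over FN and 0.327% lower in 3 h S over -S. The median log2 value of the 9 was -0.37 in -S over FN, beside -1.54 for the 4 genes of the cluster.

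GRXS1 ran opposite to the cluster. In experiment 1 its signals were 2.4 in FN, 59.4 in -S, 52.6 in 30' S and 10.1 in 3 h S. Experiment 2 gave 4.9 in FN, 72.0 in -S, 35.9 in 30' S and 9.5 in 3 h S, and both times only -S and 30' S were above the floor. It was higher in -S than in FN, at least 2.93-fold in experiment 1 and 6.17-fold in experiment 2 (log2 fold change 2.05 ± 0.18, limma adjusted p = 0.0033). It was lower in 3 h S than in -S, at least 3.45-fold in experiment 1 and 5.50-fold in experiment 2 (-1.66 ± 0.18, adjusted p = 0.011). Leaving out the -S array of experiment 2 ended the call in -S over FN, and the call in 3 h S over -S was lost without any one of the -S and 3 h S arrays and with no offset.

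GRXS2 had the course nearest to the cluster among the larger signals of the family (r = 0.939). In experiment 1 it gave 307.4 in FN, 13.8 in -S, 7.4 in 30' S and 67.4 in 3 h S, and in experiment 2 it gave 154.7 in FN, 46.2 in -S, 52.1 in 30' S and 221.8 in 3 h S. Its log2 fold change was -2.45 ± 0.56 in -S over FN (limma adjusted p = 0.098) and 1.71 ± 0.56 in 3 h S over -S (adjusted p = 0.24), neither of which passed. Its 3 h S signal was above the floor and exceeded -S in both experiments, at least 3.59-fold in experiment 1 and 4.80-fold in experiment 2. The 4 genes cannot be set beside it in experiment 1, where their 3 h S and -S signals lay below the floor. Against FN, the 3 h S signal of GRXS2 was at 21.9% in experiment 1 and 143% in experiment 2, a split like that of the 4 genes.

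GRXS6 was above the floor on 2 arrays, FN of experiment 1 (23.3) and 3 h S of experiment 2 (14.2). Its value in -S over FN was -0.84 ± 0.27 (limma adjusted p = 0.16), and its r with the cluster was 0.961 over a narrower range. ROXY2, known for its part in anther development, was above the floor on 1 array, FN of experiment 2 (12.2), and was not tested.

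Of 10 glutaredoxins of the CPYC and CGFS types, 5 were named and tested (GRXC1, GRXC2, GRXC3, GRXC4 and GRXS12), none of them a CGFS type. Limma called none in any comparison, with 0 at an unadjusted p under 0.05 in -S over FN and 1 in each of the other 3 comparisons. The methods' t-test called none of all probe sets after adjustment. The log2 fold changes of the 5 in -S over FN lay between -0.34 and 0.23, with a median of 0.09. All 5 were above the floor on all 8 arrays.

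**Figure D3:**
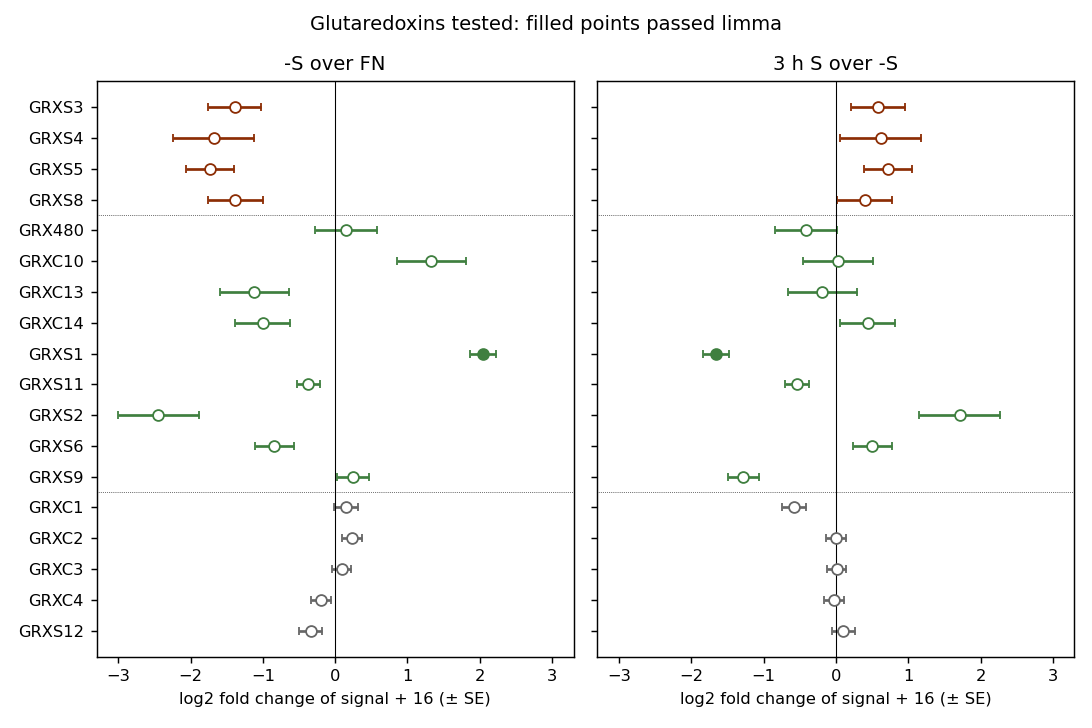
Log2 fold changes (± SE) of signal + 16 for the glutaredoxins tested, in -S over FN (left) and 3 h S over -S (right): the 4 genes of the cluster on top, the other CC-type genes below them and GRXC1 to GRXC4 and GRXS12 at the bottom. Filled points passed limma's adjusted p of 0.05, which in both panels is GRXS1 alone (2.05 and -1.66), while the 4 genes lie between -1.73 and -1.38 on the left and between 0.40 and 0.72 on the right.

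Since the cluster is known for its response to nitrate, genes of nitrate uptake and nitrate signalling were set beside it. Of 30, 7 had a named probe set and 5 were tested (NRT2.1, NRT2.4, HRS1, HHO2 and HHO3), so that the list is thinly covered. Limma called none of the 5 in any comparison, with 1 (HHO2, a repressor of nitrate-starvation genes) at an unadjusted p under 0.05 in -S over FN. The methods' t-test called none of all probe sets after adjustment. With 1 array left out, limma's calls among the 5 varied in both comparisons with FN, and were most without the FN array of experiment 2. Calls over all probe sets also rose without that array. Such a fit leaves 1 FN array, so that its calls are not read for this list.

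NRT2.1, the main high-affinity nitrate transporter of the root, differed in direction between the experiments. In experiment 1 its signals were 45.2 in FN, 261.8 in -S, 444.6 in 30' S and 595.4 in 3 h S. Experiment 2 gave 179.7 in FN, 61.7 in -S, 89.3 in 30' S and 136.4 in 3 h S, and all 8 were above the floor. The log2 ratio of -S over FN on the scale of the fit was 2.18 in experiment 1 and -1.33 in experiment 2. HRS1, a nitrate-induced repressor of primary root growth in low phosphate, stood at -1.49 in experiment 1 and 0.21 in experiment 2, and NRT2.4, a transporter of the same family as NRT2.1, at 1.45 and -0.17. HHO2 (0.63 and 0.70) and HHO3 (-0.54 and -0.10), named by the platform annotation, kept 1 sign. NRT2.1, NRT2.4 and HRS1 were named only through the study's tables, which list genes for their response in these same samples. Their change of sign is thus no independent contrast to the cluster. The 4 glutaredoxins had the same sign in both, from -2.63 to -1.86 in experiment 1 and from -1.60 to -0.65 in experiment 2.

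Of 14 genes of cytokinin response and synthesis, 5 were named and 3 tested, and limma called 1 lower in -S over FN and in 3 h S over FN. ARR16, a type-A response regulator induced by cytokinin, gave 263.3 in FN, 81.1 in -S, 56.6 in 30' S and 72.6 in 3 h S in experiment 1, where experiment 2 gave 175.7 in FN, 53.2 in -S, 62.2 in 30' S and 70.8 in 3 h S. Its log2 fold change was -1.50 ± 0.20 in -S over FN (limma adjusted p = 0.016) and -1.40 ± 0.20 in 3 h S over FN (adjusted p = 0.043), and both calls were lost with no offset and without any one of the -S or 3 h S arrays, and that in 3 h S over FN also without either 30' S array or without the experiment as a block. In 3 h S, ARR16 was at 27.6% of FN in experiment 1 and at 40.3% in experiment 2. ARR5 and ARR6, of the same type and not called in any comparison, were at 75.6% and 151% of FN in experiment 1. In experiment 2 they were at 107% and 161%. ARR17, of the same type, was below the floor on all 8 arrays. ARR16 was named by the platform annotation. ARR5, ARR6 and ARR17 were named only through the study's tables, which list genes for their response in these same samples. Their values are thus no independent contrast to the cluster.

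Of 7 genes of glutathione metabolism, 3 were tested, and limma called GGCT2;1, a cyclotransferase that breaks glutathione down, higher in -S over FN (log2 fold change 6.16 ± 0.15, adjusted p = 2e-05), lower in 3 h S over -S (-4.82 ± 0.15, adjusted p = 0.00011) and higher in 3 h S over FN (1.34 ± 0.15, adjusted p = 0.024). The last call was lost without any one of the -S, 30' S or 3 h S arrays, with no offset and without the experiment as a block. GGCT2;1 was named only through the study's tables, which list genes for their response in these same samples. Its calls are thus no independent result. The glutathione reductases GR1 and GR2, named by the platform annotation, were not called in any comparison.

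**Figure D4:**
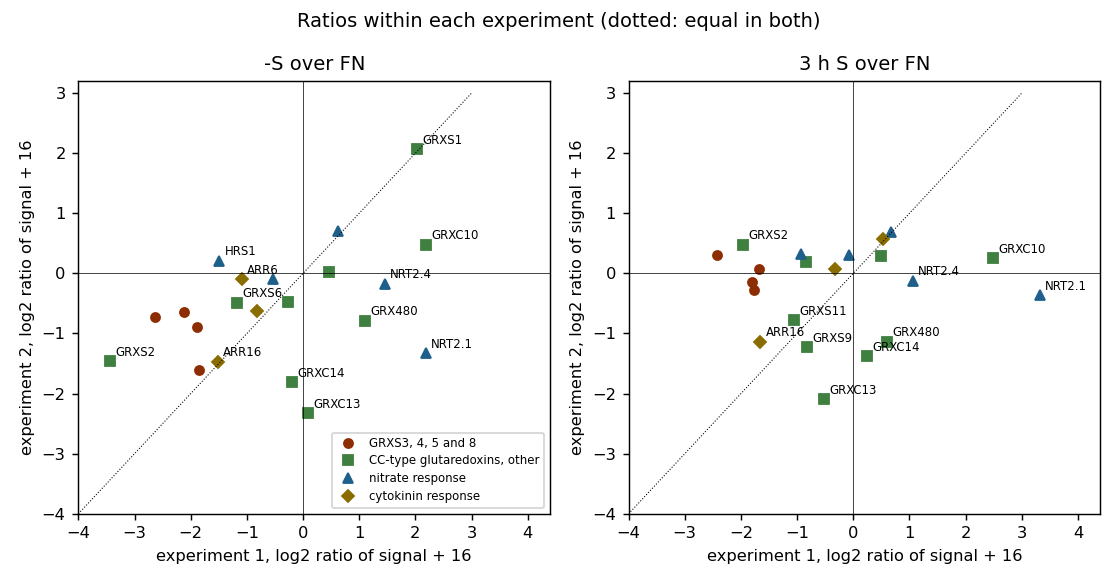
Log2 ratios of signal + 16 within experiment 1 (x axis) and experiment 2 (y axis) for the genes tested of the cluster, the other CC-type glutaredoxins, nitrate response and cytokinin response, in -S over FN (left) and 3 h S over FN (right), with genes beyond 1 log2 unit in either experiment named outside the cluster. The 4 glutaredoxins are under 0 on both axes on the left, and on the right lie between -2.42 and -1.68 in experiment 1 and between -0.27 and 0.30 in experiment 2.

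In whole seedlings, fewer cells of a type and less RNA in each cell cannot be told apart. Of the organ markers, 1 of 6 for root and 1 of 5 for shoot were named. EXPA7, an expansin of root hair cells, lay between 51.1 and 69.8 in experiment 1 and between 97.2 and 150.9 in experiment 2. RCA, the activase of Rubisco in leaves, lay between 798.5 and 1250.5 in experiment 1 and between 1701.1 and 2148.4 in experiment 2. Neither was called in -S over FN (log2 fold changes of -0.11 and -0.44, limma adjusted p = 0.73 and 0.20), both were higher in experiment 2 in every condition, and their part in the values of the cluster was not tested.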

How the data were processed

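Signals of 8 ATH1 arrays (4 conditions, 2 experiments) were taken as deposited. The authors computed them with MAS 5.0 as scaled intensity on a linear scale, 1 column for an array; the scaling target is not given in the sources used here. Groups were taken from the sample titles. Detection calls were not used, and the floor of an array was the signal at the absent share the study gives for it. The platform annotation gave 1 gene for 13513 of 22746 probe sets, the study's tables named 807 more, 503 had several genes and 7923 stayed unnamed. Genes named only through the study's tables were listed there for their response in these samples.

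Limma 3.58.1 (R 4.3.3; lmFit, eBayes) took log2(signal + 16) from the 8 arrays, with terms for condition and experiment. It covered 17138 probe sets that reached the floor on 2 or more arrays (5608 left out), with 3 residual and 4.0 prior degrees of freedom. P-values were adjusted over all probe sets (Benjamini-Hochberg, limit 0.05). All 4 genes passed the filter on low signals through both FN arrays and 3 h S of experiment 2, where they are high. GRXS3 and GRXS4 also reached the floor in 30' S of experiment 2. The experiment was a block because the titles number the experiments and the study forms ratios within each. Differences between the experiments correlated across probe sets with r = 0.08 to 0.31 between FN and the other conditions and 0.60 to 0.71 among these. The fit was tested on simulated data first.

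The genes and gene lists were chosen with earlier results of these data known. Named genes are the 4 genes, list genes called in a comparison or past 2-fold the same way in both experiments in -S over FN, and the 10 most alike probe sets. Outside this rule, the genes tested of the nitrate, cytokinin, glutathione and CPYC lists and the organ markers were named after their values had been seen. Alternatives left out each array, the block, the offset or the filter, or changed offset, floor, normalization, prior, arrays in the fit or test. Python 3.11.15 with numpy 2.4.6, pandas 2.3.3, matplotlib 3.10.9 and scipy 1.17.1 made the tables and figures. RefSeq positions served only for the order of neighbouring genes, and probe and promoter sequences were not used here.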

Additional observations from a re-analysis of the deposited data

How the results depend on the processing

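In -S over FN, the log2 fold change of each of the 4 genes stayed below 0 under all 18 alternatives, from -6.52 (no offset) to -0.67 for GRXS5, -3.81 to -0.56 for GRXS3, -3.99 to -0.56 for GRXS4 and -4.27 to -0.57 for GRXS8. Several of the 18 could not move this value in the balanced design. For GRXS3 it was -1.39 in the main fit, and again without the block, without the filter and without a 30' S array. Limma called 0 of the 4 with no replicate block (adjusted p = 0.14 for GRXS5), 1 (GRXS5) under quantile normalization, and 0 to 4 when 1 array was left out. In 3 h S over FN the same range was 0 to 4, and in 30' S over -S and 3 h S over -S it was 0 under every alternative run. Over all probe sets, -S over FN had 150 higher and 93 lower calls, against 84 and 35 with no replicate block, 2734 and 2126 when FN of experiment 2 was left out, while the methods' t-test called 0 and 0.

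The sign of 30' S over -S depended on the setting. It turned to -0.64 for GRXS3 and -0.45 for GRXS8 with no offset, to -0.01 for GRXS3, -0.04 for GRXS4, -0.06 for GRXS5 and -0.06 for GRXS8 with signals raised to the floor, and to -0.01 for GRXS8 with median centring. With 1 array left out it ran from -0.10 to 0.37 for GRXS3, from -0.19 to 0.34 for GRXS4, from -0.09 to 0.31 for GRXS5 and from -0.23 to 0.25 for GRXS8. For GRXS4, leaving out 1 array gave -0.08 to 1.31 in 3 h S over -S and -2.18 to 0.06 in 3 h S over FN. The cause was not tested, and signals below the floor limit all these values.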
